A study of Mus musculus with 24 samples.

Results

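MLL::ENL was induced in progenitors of neonatal bone marrow, and the 4 libraries of that group (P14_ME) were set here against the 4 libraries of the P14 control group (P14_Control). The members were taken by the library numbers in the labels, 9 to 12 and 13 to 16, which are 8 of the 24 libraries of the study. In the study, LSK cells (lineage-negative, Sca1+, KIT+), a marrow fraction that includes the blood stem cells and early progenitors of the mouse, were sorted from control mice and from mice with a Tet-On MLL::ENL allele, here called ME. The fusion was induced in culture, and the cells had been cultured for 48 h when RNA was taken for bulk sequencing. The P14 cells came from bone marrow, and the same design was run with E16 cells from liver and with 8wk cells from bone marrow. The title of the study names SKIDA1, neonatal progenitors and B-lineage priming as its subject.

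All groups share the sort and the culture, so the values are those of cultured cells and not of fresh marrow. The labels call the other genotype only control: whether these mice held any part of the Tet-On alleles, or their cells received the inducer, is not given in the sources used here. Nothing in the labels says that replicates were separate animals, and if they were not, p-values measure only the spread between these libraries and that spread may be technical. In bulk libraries, fewer cells of a type and less RNA per cell cannot be told apart.

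MLL, the product of Kmt2a, is a histone methyltransferase, and ENL, the product of Mllt1, is a chromatin reader found in complexes that release paused RNA polymerase II. The fusion joins the start of MLL to the end of ENL and brings the elongation machinery to MLL-bound genes such as the later Hoxa genes and Meis1, which are known for sustaining self-renewal in blood progenitors. Interferon response genes are switched on by the complex ISGF3, in which Irf9 binds DNA, at response elements made of GAAA, any 2 bases and GAAA again. Myc and its partner Max bind the E-box CACGTG and are known for driving ribosome production and growth.

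The promoters below are from the interferon response genes and the ribosome biogenesis genes, described further on. They are shown because, apart from the B-lineage genes, these 2 lists had the largest shares of members called in 1 direction. In the ribosome biogenesis list 76.7% fell and in the interferon list 70% rose. DNA replication genes were close to these, with 69.2% that fell. Each is a RefSeq promoter of 300 bases on the GRCm38.p6 build, from 250 bases before to 50 bases after the start of the gene, written 5′ to 3′ on the strand of the gene. The first 3 belong to genes that rose: Rsad2 (chr12:26456403-26456702, minus strand), which encodes the antiviral protein viperin, Trim30a (chr7:104465144-104465443, minus strand), of an interferon-induced family, and Ifit1 (chr19:34640639-34640938, plus strand), which encodes a protein that binds foreign RNA. Capitals mark each match to the core of the interferon response element (GAAA, 2 bases of any kind, GAAA), read on either strand.
Rsad2: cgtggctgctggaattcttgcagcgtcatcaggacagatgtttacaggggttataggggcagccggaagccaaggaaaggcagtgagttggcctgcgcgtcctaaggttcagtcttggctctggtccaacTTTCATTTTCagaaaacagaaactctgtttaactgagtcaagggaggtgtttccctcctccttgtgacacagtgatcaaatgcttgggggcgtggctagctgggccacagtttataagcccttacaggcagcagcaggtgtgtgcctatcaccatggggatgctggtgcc
Trim30a: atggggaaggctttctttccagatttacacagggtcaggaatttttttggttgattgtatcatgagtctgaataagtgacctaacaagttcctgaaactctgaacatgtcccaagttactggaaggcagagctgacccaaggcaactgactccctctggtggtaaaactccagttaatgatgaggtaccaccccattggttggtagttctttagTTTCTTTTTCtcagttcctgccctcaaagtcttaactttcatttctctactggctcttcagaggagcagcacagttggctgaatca
Ifit1: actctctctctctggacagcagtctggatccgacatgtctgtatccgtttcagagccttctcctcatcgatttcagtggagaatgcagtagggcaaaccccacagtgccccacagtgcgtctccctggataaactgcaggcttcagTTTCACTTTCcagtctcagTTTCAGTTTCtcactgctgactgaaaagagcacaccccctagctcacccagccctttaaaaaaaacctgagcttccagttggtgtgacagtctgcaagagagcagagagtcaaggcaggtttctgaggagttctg
The next 2 belong to ribosome biogenesis genes that fell: Mybbp1a (chr11:72441077-72441376, plus strand), a nucleolar protein, and Utp20 (chr10:88826765-88827064, minus strand), of the processome that matures the small ribosomal subunit. Capitals mark the E-box CACGTG, which reads the same on both strands.
Mybbp1a: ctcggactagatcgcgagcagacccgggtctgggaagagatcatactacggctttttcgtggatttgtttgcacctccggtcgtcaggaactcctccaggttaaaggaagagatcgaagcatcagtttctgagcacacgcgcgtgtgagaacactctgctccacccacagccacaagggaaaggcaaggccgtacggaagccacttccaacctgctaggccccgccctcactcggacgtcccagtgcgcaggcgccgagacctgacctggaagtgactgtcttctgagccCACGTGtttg
Utp20: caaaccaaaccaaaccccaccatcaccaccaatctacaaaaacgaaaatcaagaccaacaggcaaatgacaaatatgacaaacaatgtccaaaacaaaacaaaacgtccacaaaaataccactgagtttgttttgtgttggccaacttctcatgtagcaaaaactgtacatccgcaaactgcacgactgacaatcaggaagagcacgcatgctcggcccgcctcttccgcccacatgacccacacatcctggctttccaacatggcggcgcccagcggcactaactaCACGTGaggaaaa

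The interferon element stood in 18 of 34 promoters matched to 30 genes of the interferon response list (52.9%), and in 3.44% of all 32851 promoters of that length. Within the list it stood in 11 of 22 promoters of members that rose and in 6 of 11 promoters of members that were not called. The E-box stood in 7 of 26 promoters of the Myc and ribosome biogenesis list (26.9%) and in 7.15% of all promoters. Over the genes tested at P14, it stood in 12.9% of promoters of genes that fell, 8.23% of those of genes that rose and 9.37% of those of genes that were not called. These matches describe the letters of the window and were not tested.

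The P14 libraries held 37600000 to 67700000 counts each. The LSK markers were present in all 8: Kit, the stem cell factor receptor, ranged from 447 to 787 CPM (counts per 1000000, where the total of each library is scaled by its TMM normalization factor), Ly6a, which encodes Sca1, from 61.9 to 141 CPM, and Ptprc, the leukocyte antigen CD45, from 160 to 197 CPM. Totals were 43500000 ± 5930000 counts (SD, n = 4) in ME and 60200000 ± 10200000 in control, and an exact two-sided permutation test gave p = 0.0857 (0.257 adjusted over 3 tests), where 0.0286 is the smallest p that this design allows. The mitochondrial share of counts was 0.481% in ME and 0.431% in control (exact permutation p = 0.4). By Xist and 4 Y-linked genes, ME replicates 1 and 2 and control replicates 1 to 3 were female and the other P14 libraries male.

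One feature of the libraries bears on most of the results. Within each age the ME libraries carry the first 4 library numbers and the controls the last 4, and many broadly expressed genes were lower at later numbers, also inside a group. Rac1, a small GTPase of the cytoskeleton, stood at 566, 550, 340 and 135 CPM in ME replicates 1 to 4 and at 35.5, 26, 22.9 and 17.7 CPM in control replicates 1 to 4 at P14. The E16 libraries gave 567, 487, 244 and 102 CPM in ME and 37.2, 27.7, 22.2 and 25.1 CPM in control, and the 8wk libraries 488, 506, 358 and 112 CPM in ME and 38.2, 23, 16.7 and 19 CPM in control. Libraries of the same place were thus close to each other across ages, while ME replicates of 1 age differed about 4-fold or more.

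The same course was seen over the 294 genes that rose at P14 by a log2 fold change of at least 2 with at least 20 CPM in ME, a set chosen after the values were seen. Their mean log2(CPM + 0.5) was 6.4, 6.25, 5.79 and 5.07 in ME replicates 1 to 4 and 3.87, 3.36, 3.27 and 2.86 in control replicates 1 to 4 at P14. At E16 it was 6.2, 6.1, 5.54 and 4.91 in ME and 3.92, 3.51, 3.14 and 3.33 in control. At 8wk it was 6.23, 6.14, 5.77 and 5.03 in ME and 3.94, 3.47, 3.04 and 3.26 in control.

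Other genes that rose at P14 stepped between the groups with no such course inside ME. Hoxa10, a homeobox factor of the Hoxa cluster, stood at 58.1, 70.6, 71.8 and 88.1 CPM in ME and at 16.6, 17.8, 15.2 and 12.2 CPM in control. Cdh2, which encodes N-cadherin, stood at 23.4, 21.8, 29.5 and 28.3 CPM in ME and at 0.215, 0.0598, 0.226 and 0.439 CPM in control.

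**Figure D1:**
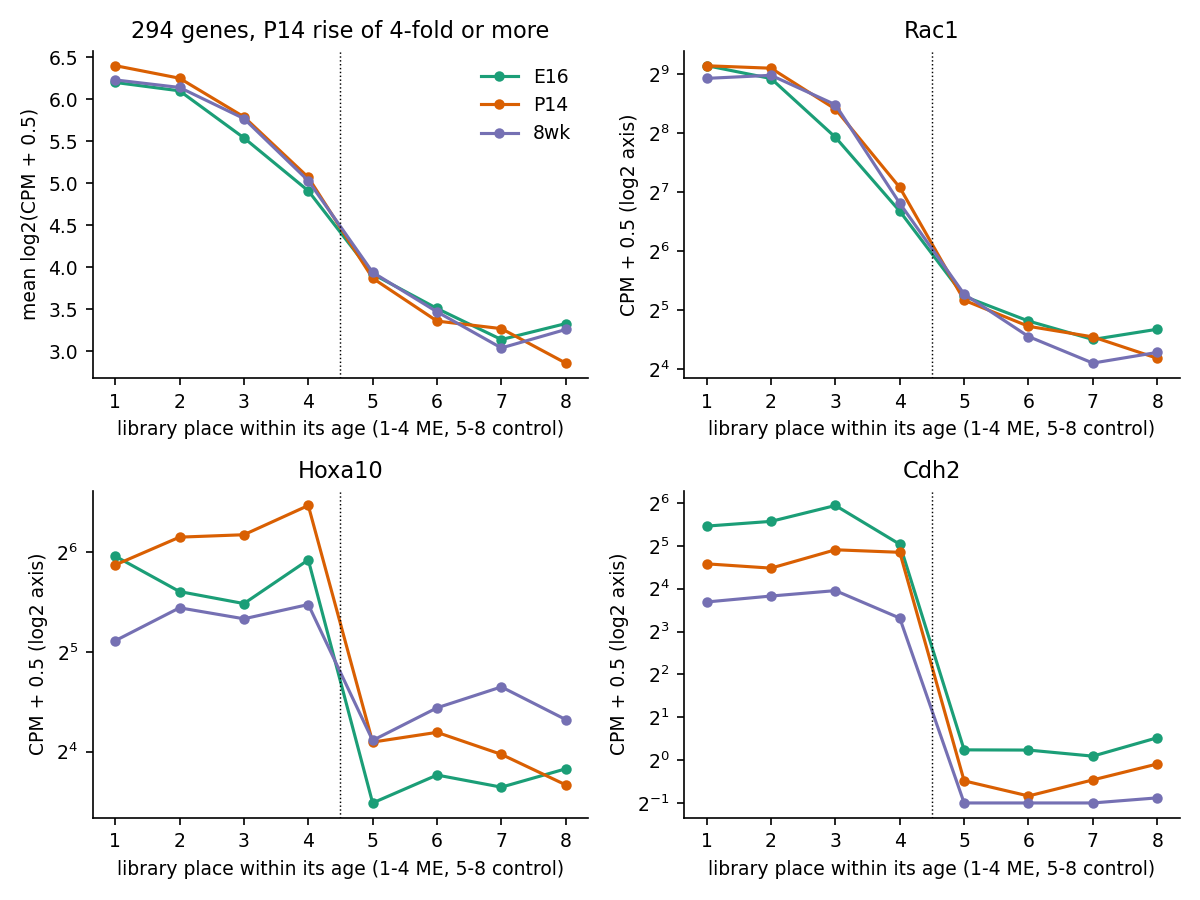
Level by the place of a library within its age (x axis; places 1 to 4 are ME replicates 1 to 4 and places 5 to 8 control replicates 1 to 4, parted by the dotted line) at E16, P14 and 8wk (colours): the mean log2(CPM + 0.5) of 294 genes that rose at P14, and CPM + 0.5 on a log2 axis for Rac1, Hoxa10 and Cdh2. The 294 genes and Rac1 fall within ME in much the same way at all 3 ages, from 566 to 135 CPM within P14 ME for Rac1, and drop again between the groups. In the E16 and 8wk controls they do not fall from replicate 3 to 4. Hoxa10 and Cdh2 step between the groups.

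To describe this for every gene, the mean log2(CPM + 0.5) of replicates 3 and 4 was subtracted from that of replicates 1 and 2 within each group, which uses no contrast of ME with control. Over the 18931 genes tested, this library-number difference in P14 ME correlated with that in E16 ME at r = 0.3 and with that in 8wk ME at r = 0.35. These are correlations across genes, which are not independent replicates, between libraries that share their place in the numbering. A difference of at least 0.5 in both E16 ME and 8wk ME was seen in 5.42% of all genes, in 19.8% of genes that rose at P14 and in 0.339% of those that fell. Of the 815 genes that rose by a log2 fold change of at least 2, 40% had it. The 2 groups share no library number, so library number and ME cannot be told apart between them.

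The P14 comparison was therefore also fitted with library number as a covariate, an alternative added after the data were seen. The covariate is the place of a library within its age, from 1 to 8. The fit assumes that a gene moves by the same log2 step from each place to the next, in both groups and at all 3 ages, and it costs precision. The means of the 294 genes did not all follow such a step. From control replicate 3 to 4 they went from 3.14 to 3.33 at E16 and from 3.04 to 3.26 at 8wk. A call kept, gained or lost in that fit is therefore not a correction of the course within P14 alone. Genes that went up along the numbers in ME at the other ages, such as Mecom below, can gain in size in it. A gene that was called in that fit too is said below to be called also with library number in the fit.

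At P14, 2398 of 18931 genes tested (12.7%) rose in ME and 1770 (9.35%) fell, by edgeR's quasi-likelihood test at a Benjamini-Hochberg adjusted p under 0.05. In all 22% of genes were called, and 57.5% of the calls were rises. That share was 70.4% with library totals in place of TMM factors and 31.7% with a correction for GC content, which moved the median log2 fold change of all genes from 0.03 to -0.16. With a GC correction that keeps the TMM centre the share was 59.5% and the median 0.05, so the low share went with the shifted centre. All 4 ME libraries lay above all 4 controls for 14.1% of genes and below them for 12.4%, and this went with a call for 10.8% and 8.31%. With library number in the fit, 848 genes (4.48%) rose and 445 (2.35%) fell, and 678 and 308 of these were also called in the same direction without it.

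Rises and falls differed in size and level. Genes that rose had a median log2 fold change of 1.55 and a median level of 9.65 CPM. Genes that fell had a median level of 84.9 CPM and a median change of 0.47 in size on the log2 scale, and 23 of them fell by 2 or more. Protein-coding genes made up 2073 of the rises and 1609 of the falls.

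**Figure D2:**
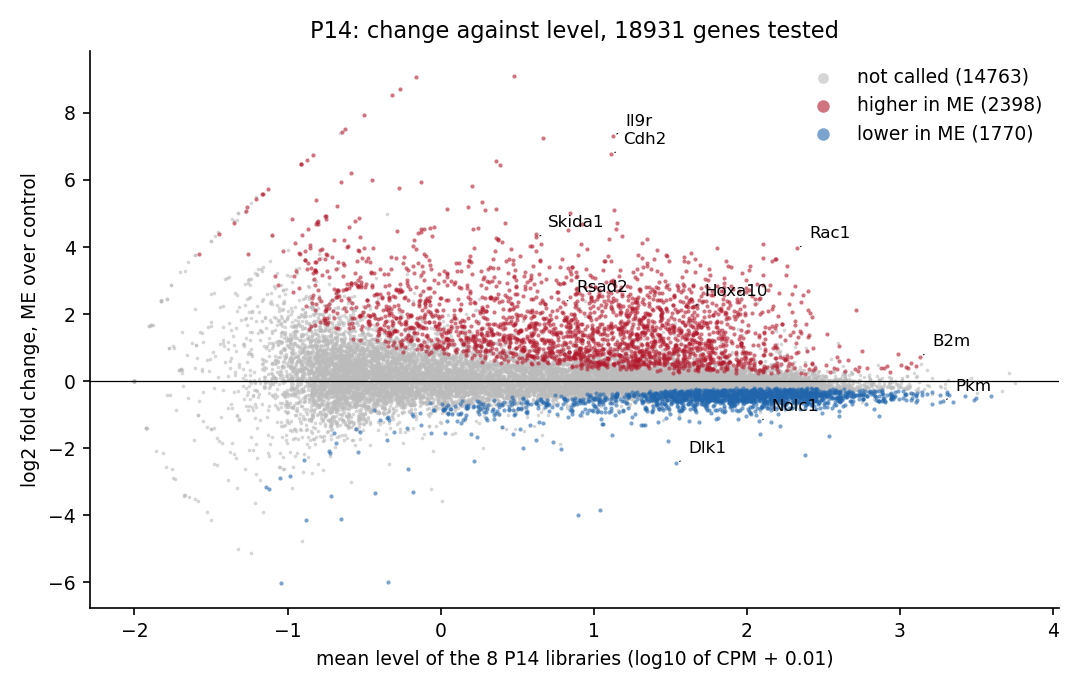
Log2 fold change of ME over control at P14 (y axis) against the mean level of the 8 libraries (x axis, log10 of CPM + 0.01) for the 18931 genes tested, each a point. The 2398 rises (red) reach log2 fold changes of several units over most of the range of levels, and most of the 1770 falls (blue) lie within 1 unit of 0 and at the higher levels.

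The genes of the fusion itself were read first. Counts at Mllt1 (chr17:56892611-56935415) and Kmt2a (chr9:44803355-44881296) cannot separate reads of the fusion from those of the endogenous genes. Mllt1 stood at 89.3, 73.7, 63.8 and 39.8 CPM in ME and at 29.8, 16.7, 27.6 and 13.6 CPM in control, so its log2 fold change with SE was 1.6 ± 0.29 (adjusted p = 0.00036 by edgeR). Kmt2a stood at 30.8, 32.7, 22.6 and 18.7 CPM in ME and at 10.7, 8.4, 17.1 and 15.1 CPM in control, a log2 fold change of 1.03 ± 0.23 (adjusted p = 0.00212). The groups did not overlap for either gene, but neither was called with library number in the fit (log2 fold changes of 0.67 and 0.74, adjusted p = 0.198 and 0.192).

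Skida1 (chr2:18040676-18049051), the gene in the title of the study, stood at 11.1, 9.32, 5.62 and 5.8 CPM in ME and at 0.258, 0.299, 0.482 and 0.574 CPM in control. Its log2 fold change was 4.29 ± 0.31 (adjusted p = 5.67e-09), and 3.66 with library number in the fit (adjusted p = 1.06e-05). Every ME library was far above every control.

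Among known MLL fusion targets, 13 of 22 tested rose and 0 fell, with a median log2 fold change of 0.93 against 0.03 over all genes. With library number in the fit 10 rose and 1 fell, and that fall was not called without it. Of the 13 rises, 9 were called also with library number in the fit, and the library-number difference of the 13 in P14 ME had a median of -0.01. Hoxa10 (chr6:52231197-52240854) rose by 2.22 ± 0.16 on the log2 scale (adjusted p = 4.06e-09) and Hoxa5, at a far lower level, by 1.56 ± 0.16 (adjusted p = 7.6e-07). Hoxa9, the cluster gene best known from MLL-rearranged leukaemia, stood at 95.2, 99.5, 93.2 and 98.6 CPM in ME and at 50, 59.9, 53.5 and 60.2 CPM in control, a log2 fold change of 0.79 ± 0.11 (adjusted p = 2.07e-05). Hoxa3, Hoxa6 and Hoxa7 rose by 1.11, 2.14 and 0.96, and these 3 were not called with library number in the fit.

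Nkx2-3, a homeobox factor, rose the most of the list, from 0.598 to 1.46 CPM in control to between 16.6 and 33.3 CPM in ME (log2 fold change of 4.73 ± 0.3, adjusted p = 6.83e-10). Mef2c, a factor of lymphoid and myeloid progenitors, stood at 437 to 521 CPM in ME against 272 to 322 CPM in control, and Lmo2, an adaptor of blood transcription complexes, at 709 to 763 CPM against 309 to 472 CPM. These 3 genes had no overlap between the groups and were called also with library number in the fit. Meis1, the partner of the Hoxa factors, stood at 221 to 249 CPM in ME and 168 to 183 CPM in control and was not called (log2 fold change of 0.42, adjusted p = 0.0758). With library number in the fit its log2 fold change was 0.86 (adjusted p = 0.0103).

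Of 17 genes of the MLL and ENL complexes, 7 rose and 2 fell, with 3 of the rises and 1 of the falls called also with library number in the fit. Psip1, which tethers MLL to chromatin, stood at 79.4, 81.4, 107 and 72.3 CPM in ME and at 23.3, 15.1, 15.5 and 12.3 CPM in control, a log2 fold change of 2.36 ± 0.27 (adjusted p = 2.62e-06). Aff4, a scaffold of the super elongation complex, rose by 1.52 and Wdr5, a core subunit of MLL complexes, fell by 0.51 on the log2 scale.

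Of 25 Polycomb genes, whose products keep genes silent, 10 rose and 0 fell. Among the rises called also with library number in the fit were Bmi1 and Cbx7, of repressive complex 1. Bmi1 stood at 82.3, 99.1, 93 and 65.5 CPM in ME and at 26.8, 23.9, 16 and 13.7 CPM in control, a log2 fold change of 2.08 ± 0.24 (adjusted p = 2.62e-06). Ezh2, the methyltransferase of repressive complex 2, stood at 94.2 to 106 CPM in ME and 100 to 110 CPM in control and was not called. Of 11 DNA methylation genes Dnmt3b, a de novo methyltransferase, rose from 51.1 to 98.8 CPM to between 169 and 226 CPM, and 4 fell, or 2 with the replicate number as a block. Without ME replicate 2, control replicate 3 or control replicate 4 also 2 fell, and without ME replicate 4 it was 1.

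Of 22 stem cell genes, 7 rose and 3 fell. The rises were Mecom, Hlf, Mllt3, Hoxb5, Procr, Pdzk1ip1 and Cdkn1c, and all of these but Cdkn1c were called also with library number in the fit; of the falls, Cd34, Ctnnal1 and Gfi1b, 0 were. The library-number difference of the 7 rises had a median of -0.63 in E16 ME, -0.19 in P14 ME and -0.62 in 8wk ME. Mecom, a zinc finger factor needed by stem cells, stood at 117, 125, 146 and 131 CPM in ME and at 43.3, 45.2, 56.6 and 59.4 CPM in control (log2 fold change of 1.35 ± 0.28, adjusted p = 0.00132). It went up along the numbers from 85.9 to 198 CPM in E16 ME and from 45.5 to 158 CPM in 8wk ME. With library number in the fit, which shares its step over ages, its log2 fold change was 2.18, and 9 stem cell genes rose. Hlf, a stem cell transcription factor, stood at 280, 305, 367 and 377 CPM in ME and at 168, 115, 112 and 94.3 CPM in control, a log2 fold change of 1.44 ± 0.34 (adjusted p = 0.00446). Hoxb5 was the 1 call among 5 Hoxb genes tested, at 0.925 to 1.38 CPM against 0.172 to 0.391 CPM.

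The largest rises among genes of at least 5 CPM included 3 surface proteins. Il9r (chr11:32187541-32200279), the receptor chain for interleukin 9, stood at 29.4, 29.2, 25.7 and 22.1 CPM in ME and at 0.0644, 0.149, 0.196 and 0.236 CPM in control, a log2 fold change of 7.31 ± 0.41 (adjusted p = 1.46e-10). Cdh2 rose by 6.77 ± 0.4 (adjusted p = 2.86e-10), and Amigo2, a cell adhesion protein, from 0.0598 to 0.301 CPM to between 4.34 and 5.82 CPM. All 3 were called also with library number in the fit, at log2 fold changes of 7.93, 7.14 and 3.67.

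Plch2, a phospholipase C, held 2 counts over the 4 controls and stood at 14.3, 7.73, 0.794 and 1.36 CPM in ME. Its pooled CPM was 729 times higher in ME (95% counting interval 201 to 6030, which covers counting error only), a ratio that rests mostly on ME replicates 1 and 2. Its log2 fold change was 9.1, and 5.25 with library number in the fit (edgeR adjusted p = 0.0347). Kcnk12, a potassium channel gene, rose by 7.24 but was not called with library number in the fit (1.63, adjusted p = 0.444). The same held for Mtch1, of the mitochondrial outer membrane, at 432, 342, 123 and 45.4 CPM in ME and 14.4 to 23 CPM in control (log2 fold change of 3.68, and 0.89 with library number in the fit). Rac1 rose by 3.96 ± 0.56 and was called also with library number in the fit, at 1.89, less than its size without it.

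Of 30 adhesion genes 7 rose and 1 fell (3 with the replicate block), and 3 of the rises and the fall were called also with library number in the fit. Beside Cdh2 and Amigo2 the rises were Itgav, Itga6, Itga9 and Itgb2, which encode integrin chains, and Pcdh7, a protocadherin. The fall was Cd44, the hyaluronan receptor, at 139 to 151 CPM in ME against 172 to 194 CPM in control. Of 25 cytokine receptors 5 rose and 2 fell, or 20% and 8% against 12.7% and 9.35% of all genes. Of the 5 rises only Il9r was called also with library number in the fit. Without ME replicate 1, ME replicate 2 or control replicate 4 there were 2 rises, and without control replicate 3 there were 3. Csf2rb, the shared chain of the receptors for interleukin 3, interleukin 5 and GM-CSF, stood at 47.8 to 74.8 CPM in ME against 99 to 131 CPM in control (log2 fold change of -0.89 ± 0.19, adjusted p = 0.00151).

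Ikzf2 (chr1:69531214-69687245), which encodes the lymphoid factor Helios, stood at 40.3, 43.2, 45.5 and 48.2 CPM in ME and at 11.6, 10.1, 10.6 and 11.9 CPM in control (log2 fold change of 2 ± 0.17, adjusted p = 9.25e-08). Among 10 Src family kinases 0 fell (1 with the replicate block) and 2 rose, Src from 0.641 to 1.87 CPM to between 20.2 and 34.5 CPM and Fyn from 9.51 to 25.7 CPM to between 80.6 and 110 CPM. Ikzf2, Src and Fyn were called also with library number in the fit. Their levels did not overlap between the groups.

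**Figure D3:**
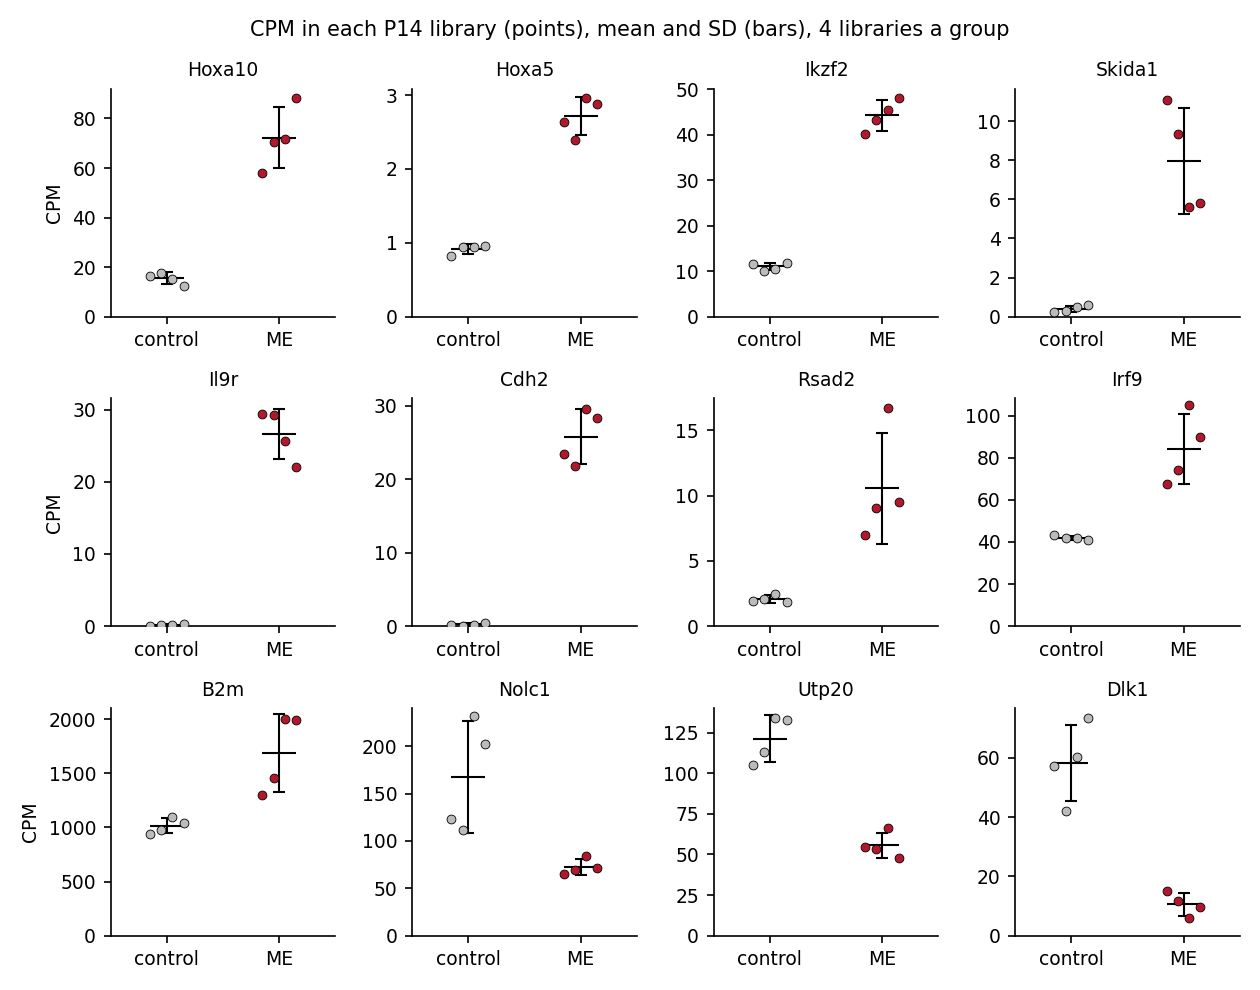
CPM of 12 genes in each of the 8 P14 libraries (points; 4 control and 4 ME, left to right by replicate number within a group), with the mean and SD as bars; each panel has its own axis starting at 0. The ME libraries lie above all controls for the 9 genes from Hoxa10 to B2m and below all controls for Nolc1, Utp20 and Dlk1, and Nolc1 varies among the controls, from 112 to 232 CPM.

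Type I interferon response genes rose for 28 of 40 tested and fell for 1, Ifitm3 (0 with the replicate block), with a median log2 fold change of 1.42. In 28 members all ME libraries lay above all controls. With library number in the fit 20 of the 28 rises were also called, and with limma-voom 18 members rose. The summed level of the list was 1350 to 2040 CPM in ME and 1150 to 1240 CPM in control.

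Irf9 (chr14:55603571-55610030) stood at 67.8, 74.1, 105 and 90.1 CPM in ME and at 43.3, 41.8, 42 and 41.1 CPM in control, a log2 fold change of 1 ± 0.12 (adjusted p = 6.61e-06). Rsad2, whose promoter is printed above, stood at 6.95, 9.09, 16.7 and 9.55 CPM in ME and at 1.95, 2.05, 2.47 and 1.82 CPM in control, a log2 fold change of 2.35 ± 0.31 (adjusted p = 1.87e-05). Trim30a, printed with it, stood at 46.1, 51.8, 73.3 and 66.5 CPM in ME and at 22.7, 20.8, 20.5 and 27.9 CPM in control, a log2 fold change of 1.37 ± 0.19. Ifit1, with 2 matches to the element, rose by 2.4 ± 0.4 to 2.04 to 8.66 CPM. ME replicate 3 was the highest library for all 4 of these genes, and the other ME libraries also lay above the controls.

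Replicate 3 of ME also held the highest level of Irf7, which amplifies the response, at 56 CPM against 19.9 to 20.3 CPM in the other ME libraries and 5.23 to 8.25 CPM in control. Oas3, a sensor of double-stranded RNA, stood at 29, 26.1, 61.1 and 26.5 CPM in ME and 6.12 to 9.84 CPM in control. Parp12, an ADP-ribosyltransferase, rose by 3.64 ± 0.44, and there ME replicate 4 was the low library, at 16.5 CPM against 54.3 to 57.2 CPM.

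Of the 28 rises in the interferon response list, 9 also rose at E16, among them Parp12 and Cmpk2 (log2 fold changes of 3.61 and 0.67 there), 1 fell at E16 and 27 rose at 8wk. The median log2 fold change of the list was 0.52 at E16 and 1.23 at 8wk. At E16 the log2 fold changes of Irf9, Rsad2, Ifit1 and B2m were 0.23, 0.74, 0.47 and 0.19, and at 8wk 0.84, 2.31, 2.15 and 0.45. None of these 4 genes was called at E16, but the test of the difference between P14 and E16 did not call them either (adjusted p = 0.268, 0.48, 0.488 and 0.48).

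Of 26 interferon receptors, sensors and regulators, 4 rose and 1 fell, or 15.4% and 3.85% against 12.7% and 9.35% of all genes, so the share of rises was near that of all genes. Dhx58, a sensor of foreign RNA, was the 1 rise called also with library number in the fit (log2 fold change of 1.25 without it). The receptor chains Ifnar1 and Ifnar2 were not called, at log2 fold changes of -0.01 and 0.02. Jak2, a kinase of cytokine receptors, rose by 2.16 with 54.4, 55.9, 29.4 and 16.4 CPM in ME, and Socs1, an inhibitor of such signals, by 3.07.

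MHC class I genes, whose products show peptides to T cells, rose for 10 of 16 tested members, and 4 of the rises were called also with library number in the fit. B2m, the shared light chain, stood at 1300, 1460, 2000 and 1990 CPM in ME and at 942, 978, 1100 and 1040 CPM in control, a log2 fold change of 0.73 ± 0.11 (adjusted p = 3.19e-05). H2-K1 and H2-D1, the classical heavy chains, rose by 0.47 and 0.44. H2-Q6 and H2-Q7 are close paralogs whose reads may be shared, and control replicate 3 held 34.7 CPM of H2-Q7 against ranges of 32.1 to 88 CPM in ME and 6.51 to 34.7 CPM over all controls. Without control replicate 1, and also without control replicate 2, 6 members rose.

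Genes of growth and division fell, by small amounts. In the Myc and ribosome biogenesis list 23 of 30 members fell and 2 rose, with a median log2 fold change of -0.51, and 6 of the falls were called also with library number in the fit. Their summed level was 5260 to 5650 CPM in ME and 7010 to 8550 CPM in control. Polr1b, a large subunit of RNA polymerase I, stood at 179, 161, 167 and 136 CPM in ME and at 260, 269, 294 and 319 CPM in control. Its log2 fold change was -0.83 ± 0.1 (adjusted p = 4.13e-06), and -0.77 with library number in the fit (adjusted p = 0.00264).

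Myc stood at 386, 336, 350 and 280 CPM in ME and at 545, 463, 563 and 414 CPM in control (log2 fold change of -0.55 ± 0.13, adjusted p = 0.00398) and was called also with library number in the fit. Utp20, with the E-box shown above, stood at 54.7, 53.5, 66 and 48 CPM in ME and at 105, 113, 134 and 133 CPM in control, a log2 fold change of -1.12 ± 0.2 (adjusted p = 0.000381). Nolc1, a nucleolar chaperone, fell by 1.2 and Mybbp1a by 1.03 on the log2 scale. Utp20, Nolc1 and Mybbp1a did not overlap between the groups but were not called with library number in the fit (adjusted p = 0.068, 0.234 and 0.0713). The 2 rises were Rrs1, a ribosome assembly factor, and Odc1, the first enzyme of polyamine synthesis, at log2 fold changes of 2.67 and 2.36.

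DNA replication genes fell for 18 of 26 members and rose for 0, with a median log2 fold change of -0.42. Mcm5 and Mcm7, subunits of the replicative helicase, stood at 581 to 705 and 500 to 632 CPM in ME against 837 to 1020 and 757 to 924 CPM in control. Rrm2, a subunit of ribonucleotide reductase, was the 1 fall called also with library number in the fit. Of 26 mitosis genes 14 fell and 0 rose, and Cdc20, Ccnb1, Aurkb and Plk1, which drive or regulate passage through mitosis, were called also with library number in the fit. Cdc20 stood at 246, 198, 189 and 172 CPM in ME and at 296, 295, 355 and 362 CPM in control (log2 fold change of -0.7 ± 0.11, adjusted p = 6.49e-05).

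Among 25 G1 regulators and E2F genes 9 rose and 3 fell. E2f5, of the E2F family, rose by 3.01 ± 0.37 and Cdkn1b, the kinase inhibitor p27, by 1.55 ± 0.22, and these were the 2 rises called also with library number in the fit. E2f1, an activator of S phase genes, stood at 91.3, 79.3, 40 and 18.5 CPM in ME and 8.01 to 11.6 CPM in control. It rose by 2.53 ± 0.47 but was not called with library number in the fit (adjusted p = 0.35).

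Glycolysis and hypoxia genes fell for 12 of 20 members and rose for 0 (1 with the replicate block), with a median log2 fold change of -0.54, and 8 were called also with library number in the fit. Pfkp, a phosphofructokinase, stood at 112, 106, 93.1 and 78 CPM in ME and at 161, 159, 170 and 163 CPM in control (log2 fold change of -0.75 ± 0.14, adjusted p = 0.000647). Gapdh, Eno1 and Pgam1, enzymes of the later steps, fell by 0.61, 0.62 and 0.59 on the log2 scale. The summed level of the list was 9550 to 11900 CPM in ME and 13900 to 17300 CPM in control.

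Respiratory chain genes fell for 14 of 26 members and rose for 0, with a median log2 fold change of -0.36, and 8 were called also with library number in the fit. Atp5b, the catalytic subunit of ATP synthase, stood at 2380 to 2900 CPM in ME against 3330 to 4080 CPM in control. Ribosomal protein genes fell for 5 of 30 members (3 with the replicate block) and cholesterol and fatty acid genes for 6 of 23, and 0 of these 11 falls were called with library number in the fit. Leaving out ME replicate 3 or 4 or control replicate 3 gave 3 ribosomal protein falls, control replicate 4 gave 1 and control replicate 1 gave 9. Leaving out ME replicate 1 or 2 or control replicate 3 or 4 gave 3 cholesterol and fatty acid falls, and ME replicate 4 gave 2.

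Of 25 genes of the ATF4 amino acid stress response 1 rose and 5 fell, or 2 and 3 with the replicate block. With library number in the fit 0 rose and 11 fell, of which 4 were also falls without it. Without ME replicate 2 or control replicate 2 or 3 there were 3 falls, and without ME replicate 3 or 4 or control replicate 4 there were 2. The falls included Slc6a15, an amino acid transporter, at 1.91 to 3.2 CPM against 7.95 to 12.4 CPM, and Psat1, an enzyme of serine synthesis, at 328 to 420 CPM against 462 to 571 CPM. The rise, Cebpb, a bZIP factor, was highest in ME replicate 1, with 4, 1, 0.457 and 0.161 CPM in ME and 0.0151 to 0.118 CPM in control, and its log2 fold change was -1.51 with library number in the fit. Of 18 immediate early and heat shock genes 2 rose and 5 fell, or 3 with the replicate block and also without control replicate 4. The falls were all chaperones, Hspd1, Hspe1, Hspa8, Hsph1 and Hsp90aa1, and Hspd1, of mitochondria, fell by 0.62 on the log2 scale (adjusted p = 3.07e-05).

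Among falls of more than 1 on the log2 scale was Dlk1, an imprinted surface protein of immature cells. It stood at 15.2, 11.7, 5.99 and 9.67 CPM in ME and at 57.3, 42, 60.1 and 73.4 CPM in control, a log2 fold change of -2.45 ± 0.4 (adjusted p = 0.000154). Gzmb, a granzyme of cytotoxic cells, stood at 0.457 to 2.77 CPM in ME against 13.9 to 26.7 CPM in control, and Mcpt8, a basophil protease, at 3.75 to 7.61 CPM against 10.8 to 27.1 CPM. These 3 were called also with library number in the fit. Scin, an actin-severing protein, stood at 234, 238, 94.1 and 108 CPM in ME against 390 to 637 CPM in control and was not called with library number in the fit (adjusted p = 0.13).

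The fall of Pex7, a peroxisome import receptor singled out after its values were seen, went with 1 library: control replicate 2 held 1380 CPM, the other controls 58.7 to 89.4 CPM and ME 81.5 to 90.1 CPM. Of 14 imprinted growth genes Cdkn1c, a kinase inhibitor, rose and Dlk1, Meg3, a noncoding RNA, and Grb10, an adaptor of growth factor receptors, fell. Of these, Dlk1 was called also with library number in the fit.

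Early B-lineage genes had the highest share of rises, 18 of 25, with a median log2 fold change of 2.54 and 0 falls, but the ME libraries did not share it. Cd79a, a chain of the B cell receptor, stood at 76.8, 26.2, 1.41 and 0.207 CPM in ME and at 1.35, 1.38, 0.271 and 0.0843 CPM in control. Igll1, of the pre-B cell receptor, stood at 80.5, 34.1, 1.37 and 0.046 CPM in ME and at 3.97, 1.49, 0.301 and 0.101 CPM in control. ME replicates 1 and 2 were high for both, and replicates 3 and 4 were within or near the range of the controls.

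The library-number difference of the 18 genes had a median of 3.26 in P14 ME, 0.35 in E16 ME and 0.14 in 8wk ME. In P14 ME replicates 1 and 2 were female and 3 and 4 male, so there this difference and sex cannot be told apart. In 4 of the 25 members all ME libraries lay above all controls, which held for 14.1% of all genes. The count of rises was 10 without ME replicate 1, 4 with limma-voom, 4 in a fit of the P14 libraries alone and 2 with library number in the fit. Those 2 were Rag1 and Rag2, the recombinase genes. Rag2 stood at 17, 14, 23 and 10.5 CPM in ME and at 2.77, 3.98, 7.42 and 3.76 CPM in control, with no overlap (log2 fold change of 1.84 ± 0.29, adjusted p = 7.66e-05). Dntt, which adds bases at the joins made after Rag1 and Rag2 have cut, stood at 57.9 to 119 CPM in ME and 34.7 to 94.6 CPM in control and was not called.

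Of 16 lymphoid-primed progenitor genes 4 rose, and Satb1 and Mef2c were called also with library number in the fit. Satb1, a chromatin organiser of lymphoid progenitors, stood at 76.9, 72.6, 78.6 and 37 CPM in ME and at 18.5, 16.2, 21.2 and 16 CPM in control (log2 fold change of 1.88 ± 0.21, adjusted p = 1.66e-06). Id3, an inhibitor of E proteins, was highest in ME replicates 1 and 2, with 11.8, 4.62, 0.496 and 0.944 CPM in ME and 0.101 to 0.419 CPM in control. Of 16 T and NK cell markers 4 rose (2 without control replicate 1 or 4) and 1 fell, and the summed level of that list was 304 to 352 CPM in ME and 333 to 369 CPM in control.

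Granulocyte-monocyte progenitor genes rose for 4 of 16 members, Gfi1, Cebpa, Cebpd and Irf8 (2 without ME replicate 1 or without control replicate 2, 3 or 4), and 0 of these were called with library number in the fit, where Cebpd and Irf8 were at -0.19 and -0.11 and 2 other members, the surface receptors Fcgr3 and Clec12a, fell. Elane, a granule protease, stood at 445, 277, 4.65 and 2.03 CPM in ME and at 162, 232, 13.6 and 13.6 CPM in control and was not called (log2 fold change of 0.79, adjusted p = 0.719). Replicates 1 and 2 of both groups were high for it and replicates 3 and 4 low. Mpo, the myeloid peroxidase, stood at 1530, 1270, 499 and 210 CPM in ME and at 1070, 1130, 886 and 366 CPM in control.

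Of 15 mature neutrophil markers 0 were called by edgeR (1 rise with the replicate block), but 5 fell with library number in the fit, among them S100a8 and S100a9, which encode the subunits of calprotectin, at -1.61 and -2.01 without it (adjusted p = 0.508 and 0.433). Of 19 monocyte and macrophage markers 5 rose, of which 0 were called with library number in the fit. Without ME replicate 1 or 2 or control replicate 3 or 4 there was 1 such rise, and without control replicate 1 there were 2. Of 20 erythroid genes 3 rose and Tfrc, the transferrin receptor, fell, or 15% and 5% against 12.7% and 9.35% of all genes. The share of rises was thus near that of all genes. Tfrc was not called with the replicate block (adjusted p = 0.0851). The summed level of neutrophil markers was 5.92 to 16.5 CPM in ME and 8.91 to 50.8 CPM in control, and that of mast cell and basophil markers 112 to 401 CPM and 87.8 to 266 CPM. Hepatocyte markers summed to 8.02 to 12.2 CPM in ME and 10 to 14.1 CPM in control, with 2 of 7 at 0 in all P14 libraries, and stromal markers to 31.2 to 66.1 CPM and 64.6 to 114 CPM. The part of such cells in the results above was not tested.

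**Figure D4:**
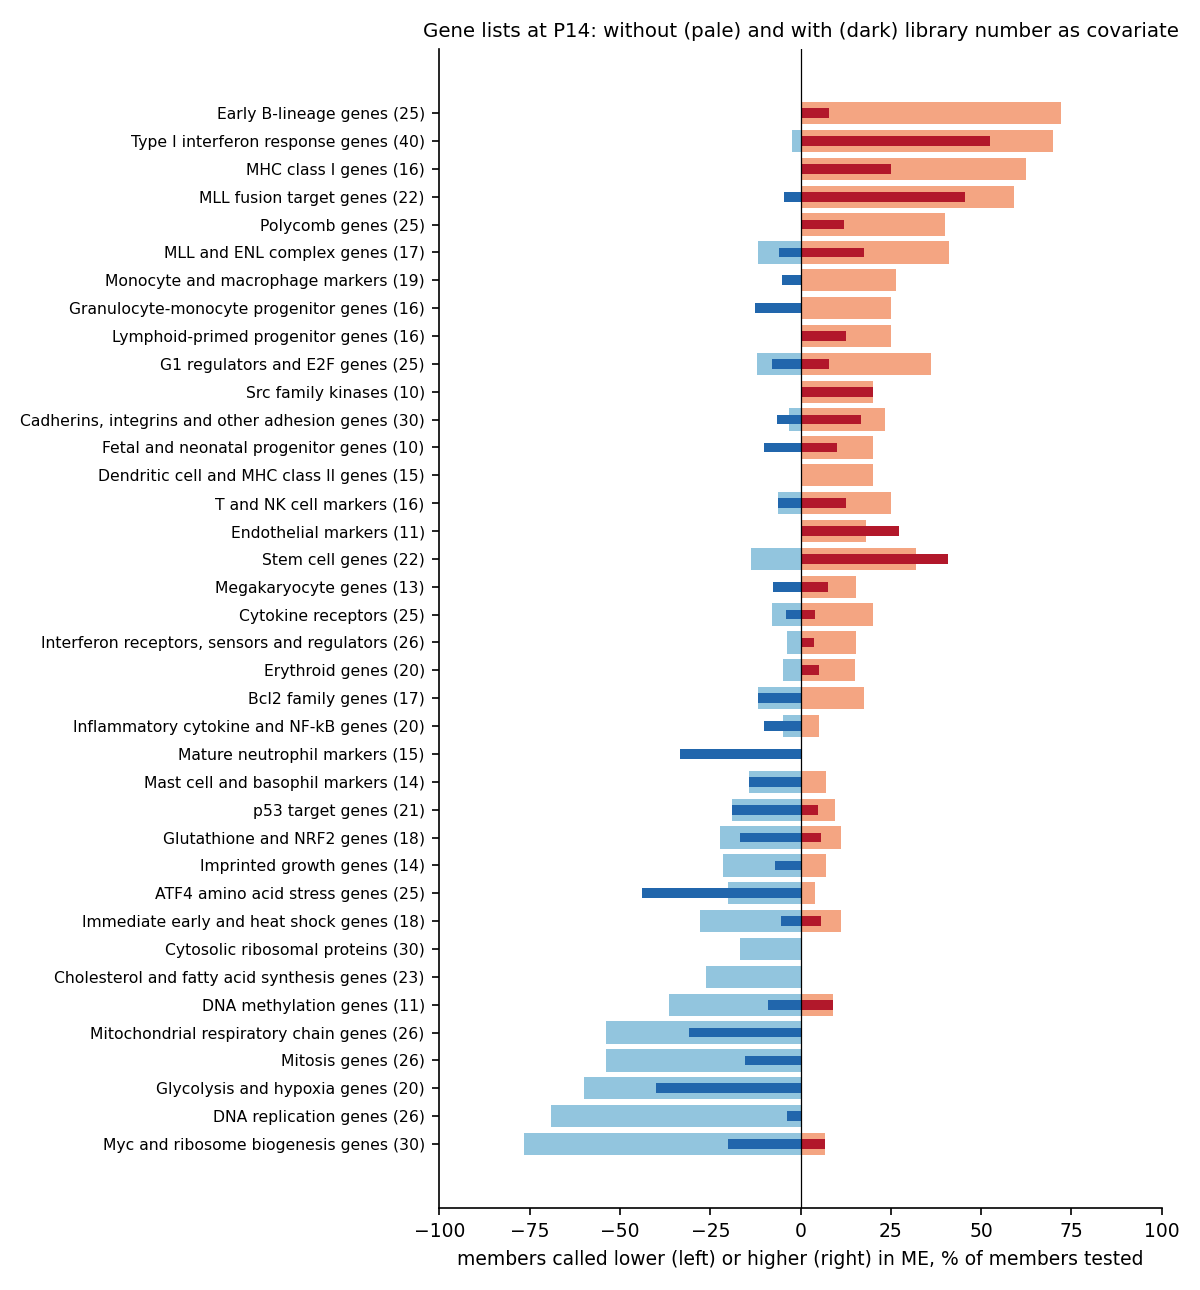
Members called at P14 as a percentage of members tested (number in brackets) for gene lists of at least 10 tested members; bars to the right are rises in ME and bars to the left falls, pale without and dark with library number as a covariate in the edgeR fit. Type I interferon response genes keep most of their bar on the right, from 28 to 21 rises, and glycolysis and hypoxia genes on the left, from 12 to 8 falls, whereas early B-lineage genes go from 18 to 2 rises and DNA replication genes from 18 falls to 1.

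The P14 effect was then set against those at E16 and 8wk, which have controls of their own. At E16 13.3% of genes rose and 8.47% fell, and at 8wk 14.2% rose and 14.3% fell. Of the genes that rose at P14, 1656 also rose at E16 (69.1% of the P14 rises and 65.7% of the E16 rises) and 1566 at 8wk (65.3% and 58.3%). Of the falls, 1036 also fell at E16 (58.5% and 64.6%) and 953 at 8wk (53.8% and 35.2%). Opposite calls were few: 1 P14 rise was a fall at E16 and 6 were falls at 8wk, and 0 P14 falls were rises at E16 and 17 at 8wk. The ages share the order of their library numbers, so this overlap does not separate ME from library number.

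The test of the difference itself found 3 genes (0.0158%) with a higher effect at P14 than at E16 and 1 (0.00528%) with a lower one. Kynu, an enzyme of tryptophan breakdown, stood at 3.62, 4.26, 5 and 5.64 CPM in P14 ME and at 0.816, 1.12, 0.376 and 1.18 CPM in P14 control. Its log2 fold change was 2.4 ± 0.28 at P14 and 0.22 at E16, a difference of 2.19 (adjusted p = 0.0268). Ifi27, an interferon-induced gene, stood at 95.5, 99.5, 143 and 104 CPM in P14 ME and at 48, 38.8, 64.3 and 47.5 CPM in P14 control. Its log2 fold change was 1.15 at P14 and -0.65 at E16, a difference of 1.81 (adjusted p = 0.0259). The other 2, Alox12 and Crispld1, were not called at P14 (0.77 and 0.4), and their differences from E16 were 4.32 and -1.77. With the replicate block Alox12 and Crispld1 were called and Kynu and Ifi27 were not (adjusted p = 0.248 and 0.106).

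Against 8wk, 20 genes (0.106%) had a higher effect at P14 and 37 (0.195%) a lower one. Hoxa10 rose by 2.22 at P14 and 0.97 at 8wk, a difference of 1.26 (adjusted p = 0.0213), and Skida1 by 4.29 and 2.3, a difference of 1.99 (adjusted p = 0.0376). Ikzf2 rose by 2 and 0.81, a difference of 1.19 (adjusted p = 0.0376). St3gal6, a sialyltransferase, stood at 27 to 33.7 CPM in P14 ME against 9.18 to 14.7 CPM in P14 control, a log2 fold change of 1.47, and was at 0.04 at 8wk. In these 4 genes the P14 groups did not overlap, and the E16 effects were 2.12, 4.39, 1.34 and 1.14.

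Among the genes with a lower effect at P14 than at 8wk were enzymes of glycolysis. Aldoa, aldolase A, stood at 748 to 877 CPM in P14 ME against 1070 to 1260 CPM in P14 control and had log2 fold changes of -0.54 at P14 and 0.62 at 8wk, a difference of -1.16 (adjusted p = 0.0213). Hk2, Pfkp, Tpi1 and Pkm differed by -1.03, -1.04, -0.85 and -0.93. Bax, an effector of cell death, had -0.59 at P14 and 0.36 at 8wk (difference of -0.95, adjusted p = 0.00819). Kit, the marker of the sort, had 0.11 at P14, where it was not called, and 1.59 at 8wk (difference of -1.48, adjusted p = 0.0162).

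These counts depended on the fit and on single libraries. With the replicate number as a block, 0 genes had a higher and 2 a lower effect at P14 than at 8wk, and 0 of the 57 differences called without the block were called with it, so every difference from 8wk named above lost its call. Adjusted p with the block was 0.0647 for Kit and 0.0884 for Hoxa10. The block lowered the residual degrees of freedom from 18 to 9, and the replicate numbers did not pair at 8wk. A call lost with the block does not show that the ages had the same effect. With library number as a covariate the counts were 50 and 69, and all 57 were among them. Without 8wk control replicate 1 the counts were 169 and 211, without 8wk ME replicate 4 they were 77 and 148, and without P14 ME replicate 4 they were 0 and 4.

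**Figure D5:**
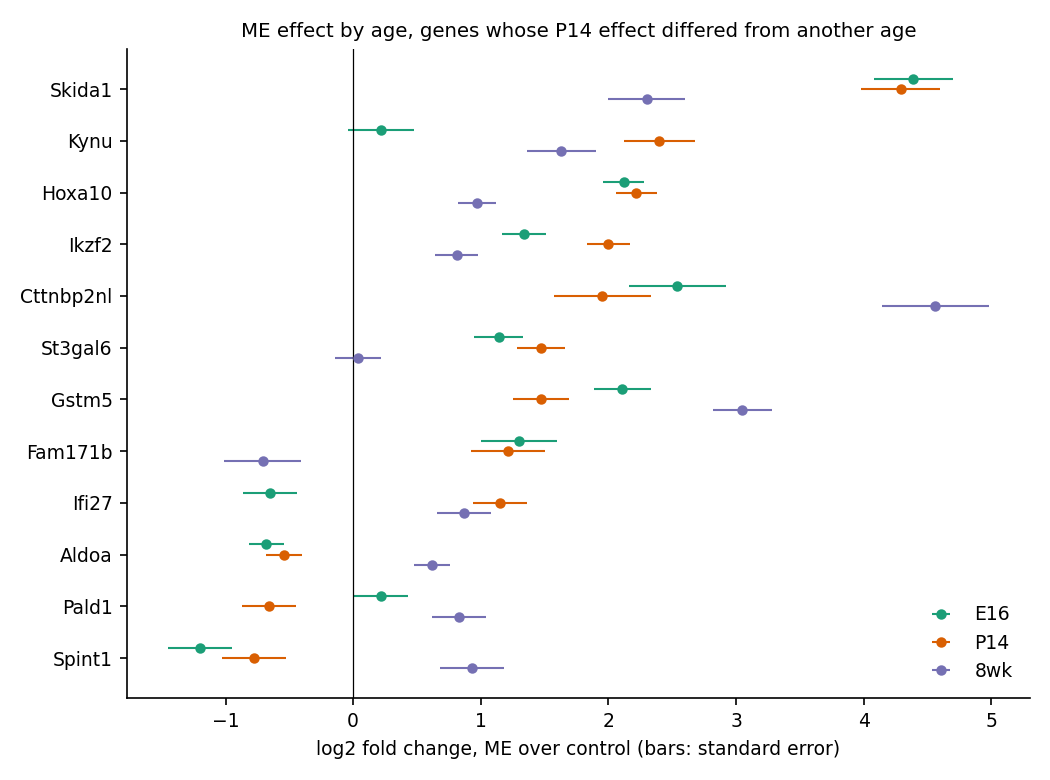
Log2 fold change of ME over control (x axis; points, with bars for the standard error) at E16, P14 and 8wk (colours) for 12 genes whose P14 effect differed from that at another age. Skida1, Hoxa10, Ikzf2 and St3gal6 have P14 effects above those at 8wk, Kynu and Ifi27 have P14 effects above those at E16, and Aldoa, Pald1 and Spint1 lie below 0 at P14 and above 0 at 8wk.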

How the data were processed

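Bulk RNA-seq of 24 mouse LSK libraries was used, 4 in each of 6 groups taken from the sample titles, and the P14 libraries are described. The deposited table gives unnormalized counts of each Ensembl gene in each library. Per the submitters' processing notes, the authors used STAR 2.7.9a, the GRCm38 build and, from Subread, featureCounts 2.0.3. Annotation release and strand setting are not given in the sources used here, so antisense and overlapping genes are uncertain. Per the labels' protocols, the library kit was Clontech's SMART type. Of 55774 lines, 55487 identifiers were unique, and for 168 with repeated lines of equal counts 1 line was used. Coordinates came from GENCODE M21 (55141 identifiers matched). A median of 63.6% of counts from 1 to 20 were even, as where both mates are counted, so counting intervals may be too narrow.

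CPM, pooled ratios and floors use the library totals scaled by TMM factors, per 1000000 counts. All 24 libraries were fitted with 6 group means in edgeR 4.0.16 (R 4.3.3; robust quasi-likelihood, TMM, filterByExpr with a minimum count of 10), which left 18931 genes, with Benjamini-Hochberg adjustment over all of them. Differences between ages were contrasts of the same fit. The fit was tested on simulated data of independent libraries with no course along the library numbers, so that test does not cover such a course. Alternatives were library totals, RLE factors, DESeq2 1.42.0, limma-voom (limma 3.58.1), no filter (38463 genes), at least 1 CPM in 4 libraries, the P14 libraries alone, each replicate left out, a replicate block, a Y-linked covariate, a GC correction, and library number as a covariate. Same-numbered P14 libraries had deviations from their group means correlated at 0.24, 0.18, 0.14 and 0.32, all above 0.1. By a rule set on those values alone, results of the replicate block are given beside those of the main fit, which has no pairs. Differently numbered P14 libraries ranged from -0.35 to 0.31, and ME replicates 2 and 3 correlated most with controls of another number (0.24 and 0.31). Replicates 1 and 2 were female and replicate 4 male in both P14 groups. Pairing, sex and a shared course along the numbers cannot be told apart here. The labels name no shared animal or day. At E16 and 8wk same-numbered libraries did not pair (-0.1 to -0.01 and -0.2 to 0.13).

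Named genes were Skida1, Mllt1 and Kmt2a, the 12 largest rises and 12 largest falls among called genes of at least 5 CPM whose groups did not overlap, the 6 largest each way at 100 CPM or more, the 5 largest differences between ages each way, and up to 4 members of each of 42 gene lists by adjusted p. Further list members, such as Elane, Mpo, Meis1 and Ezh2, were named after their values were seen. Members and lists were chosen with earlier results of these data known. Promoters were those of RefSeq (GRCm38.p6).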

Additional observations from a re-analysis of the deposited data

Results flagged for a closer look

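Single libraries stood apart from the other 3 of their group in 26 of 333 groups examined, by Dixon's criterion for 4 samples, where chance gives about 1 in 20. In ME the highest library held 1.77 CPM of Lvrn, 3.89 of Plscr2, 7.15 of Pald1, 1.38 of Hoxb5, 1.38 of Klrb1c, 0.0691 of Meg3, 51.1 of Cmpk2, 385 of Fbl and 676 of Tpi1. The lowest ME library held 3.75 CPM of Mcpt8, 37 of Satb1, 56.8 of Tfrc, 16.5 of Parp12, 48.1 of Bid and 169 of Dnmt3b. Among the controls the highest library held 0.043 CPM of Plch2, 36.3 of Gstm5, 4.4 of Cbx7, 0.0301 of Prf1, 0.0299 of C1qc, 34.7 of H2-Q7, 25.7 of Fyn, 509 of Ccnb1 and 1330 of Phgdh. The lowest control held 0.816 CPM of Hoxa5 and 0.172 CPM of Hoxb5. For Plch2, Prf1 and C1qc the other controls were at 0, and for Meg3 the other ME libraries were.

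The effect of ME differed between ages, by the edgeR test of the difference, in 17 of the named genes. With the replicate block 0 of these 17 differences were called (adjusted p = 0.106 and 0.248 for the 2 from E16 and 0.0647 to 0.181 for the 15 from 8wk). That fit has 9 residual degrees of freedom against 18 without the block. Kynu was 2.19 and Ifi27 1.81 higher at P14 than at E16 on the log2 scale. Against 8wk the P14 effect was higher by 1.99 for Skida1, 1.92 for Fam171b, 1.43 for St3gal6, 1.26 for Hoxa10 and 1.19 for Ikzf2. It differed by -2.6 for Cttnbp2nl, -1.71 for Spint1, -1.58 for Gstm5, -1.49 for Pald1 and -1.16 for Aldoa, and by -1.04 for Pfkp, -1.03 for Hk2, -0.95 for Bax, -0.93 for Pkm and -0.85 for Tpi1.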

How the results depend on the processing

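The library-number covariate and the GC correction that keeps the TMM centre were chosen after seeing the data, and the other alternatives were not. At P14 the falls numbered 1128 with library totals only, 3920 with the GC correction and 3356 with the GC correction and the replicate block (33.4% of those calls were rises), and the covariate gave 848 rises and 445 falls. With the GC correction that keeps the TMM centre there were 2509 rises and 1709 falls, so 59.5% of those calls were rises. With the replicate block there were 2099 rises and 1181 falls. Leaving out 1 replicate gave 1776 to 2220 rises and 1129 to 2165 falls, with 1129 without P14 control replicate 4.

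For P14 minus E16, the counts higher and lower were 19 and 10 with DESeq2 and 1 and 1 with the replicate block; with the Y-linked covariate they were 1 and 0. The lower count was 0 with limma-voom, 3 with either GC correction and 2 with the library-number covariate, and the higher count 1 with the GC correction and block. Leaving out 1 replicate gave 1 to 3 higher and 0 to 2 lower. For P14 minus 8wk, the counts were 89 and 209 with DESeq2, 0 and 2 with the replicate block (0 of the 57 shared), 12 and 77 with the GC correction, 2 and 13 with the GC correction and block and 50 and 69 with the library-number covariate, and limma-voom gave 13 higher. Leaving out 1 replicate gave 0 to 169 higher and 4 to 211 lower, and leaving out any P14 or 8wk replicate except P14 ME replicate 1 moved the count higher, the count lower or both by over 1.5 times. The cause was not tested.

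Of the 167 named genes, all called at P14, 129 kept their direction and call under the 20 alternatives other than the library-number covariate, 82 were called also with that covariate, and 76 kept both under all 21. With the replicate block, Pald1, Tfrc, Mcpt4, Rpl3, Fdft1, Phgdh and Uhrf1 were not called (adjusted p = 0.072, 0.0851, 0.0866, 0.0663, 0.0646, 0.0808 and 0.0594 in edgeR's paired fit), and the block changed no other call of the named genes at P14. Log2 fold changes changed sign with the covariate for Cebpd (-0.19), Irf8 (-0.11), Cd14 (-0.32) and Cebpb (-1.51), and for Bbc3 with the GC correction (-0.11) and with it and the block (-0.07). Between P14 groups, the total counts and mitochondrial shares kept their direction and stayed past no threshold when 1 replicate was left out. Genes with a few counts per library, such as Plch2 and Meg3, are limited by depth.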

Other observations

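Several gene groups outside the comparisons above had few or mixed calls at P14. For these and all lists above, the shares to compare with are the 12.7% of all genes that rose and the 9.35% that fell. Of 21 p53 target genes 2 rose and 4 fell, and Bax and Perp, a membrane protein of cell death, were the 2 falls called also with library number in the fit. Bax stood at 96.1, 87.4, 92.8 and 89 CPM in ME and at 125, 142, 154 and 128 CPM in control. Of 17 Bcl2 family genes 3 rose and 2 fell, and Mcl1, which holds cell death back, stood at 184, 183, 82.9 and 37.8 CPM in ME and 14.3 to 21.6 CPM in control, with a log2 fold change of 2.7 that was 0.7 with library number in the fit. Of 18 glutathione and NRF2 genes 2 rose and 4 fell, and Gclm, a subunit of the first enzyme of glutathione synthesis, rose by 2.59 and was called also with library number in the fit.

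Of 10 fetal and neonatal progenitor genes 0 fell (2 with the replicate block) and 2 rose, Igf2bp1, an RNA-binding protein of fetal cells, at 0.32, 0.36, 0.238 and 0.529 CPM in ME and 0.193, 0.149, 0.0903 and 0.169 CPM in control, and Tspan32, a tetraspanin, at 164 to 172 CPM against 110 to 150 CPM. Of 20 inflammatory cytokine and NF-kB genes Tnfaip2 rose (2 genes with the replicate block) and Ccl3, a chemokine, fell, at 8.52 to 12.9 CPM against 13.6 to 26.1 CPM. Of 14 mast cell and basophil markers Mcpt8 and Gzmb fell, and Mcpt4, a mast cell protease with 0 counts in the controls, rose. Mcpt4 stood at 0.28, 0.668, 0.0397 and 0 CPM in ME, so ME replicate 4 was at 0 like the controls. Its pooled CPM was at least 18.3-fold higher in ME, taking 3 counts over the group as the floor. It was called neither with the replicate block nor with library number in the fit (edgeR adjusted p = 0.0866 and 0.275). Meg3 held 3 counts over the ME libraries, and its pooled CPM was 8.15 times higher in control (95% counting interval 2.55 to 41.6). Of 1431 long noncoding genes tested 150 rose and 16 fell.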
